A study of Mus musculus with 15 samples.

Results

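The 9 genes described here are Thbs1, Sdc4, Tnfrsf12a, Crip2, S100g, Net1, Lmna, Nav3 and Prg4, out of 18194 genes measured on arrays of mouse brown fat. They are a fixed set, selected on measured values of these samples, because their levels were higher with the hormone FGF21 than with an antibody against its receptor, or because they had the largest increases with FGF21 over control. Each gene is represented by its brightest probe set that carries a single gene symbol, and all 9 were among the 13174 genes tested. S100g passed the filter on dim genes, which stood at 5.06 on the log2 scale, only through the FGF21 samples, since its mean over the other 10 samples was 4.79. High levels with FGF21, low levels with the antibody and low levels in controls all took part in the choice. The differences between the 3 groups are therefore given for the 9 genes as descriptions without a test. Their intervals are for mean differences and rest on the spread between mice only.

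All 15 mice were adult wild-type males (genotype wt) of the strain C57BL/6N on a high-fat diet, and interscapular brown adipose tissue was taken on day 5. The 5 control mice (samples 31 to 35) have no injected substance named in the labels. The 5 FGF21 mice (36 to 40) received human FGF21, 1 mg/kg per injection b.i.d. and so 2 mg/kg/day, over 5 days. The 5 mice of the antibody group aFGFR1/KLB (41 to 45) received the agonist bFKB1 against FGFR1/KLB in 1 intraperitoneal injection of 10 mg/kg. The agents therefore differed in dose, number of injections and time since the last one, so that a difference between them cannot be assigned to the agent alone. All levels below are log2 of the deposited intensity, so a difference of 1 is a doubling, and each group holds 5 samples, 1 per mouse.

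FGF21 is an endocrine member of the fibroblast growth factor family that needs the co-receptor beta-klotho (KLB) beside the receptor FGFR1 to signal, and receptor activation runs through the Ras and ERK kinase cascade to transcription factors of the ETS family. In brown fat, a tissue that burns fuel for heat, the adipocytes carry both receptor parts. The 9 genes encode proteins of different compartments. Thbs1 and Prg4 encode secreted glycoproteins, Sdc4 and Tnfrsf12a proteins of the cell surface, Net1, Crip2, Nav3 and S100g proteins of the cytoplasm and its skeleton, and Lmna the A-type lamins of the nucleus.

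The samples carried the markers of the labelled tissue, with the mean of 10 measured brown adipocyte markers between 12.26 and 12.86 in all 15 samples. Array medians lay between 50.6 and 52.1 on the linear scale, and no pair of arrays correlated below 0.962. Samples control 34 and FGF21 36 had the highest macrophage markers of their groups, with means over 17 markers of 10.59 and 10.86. Over all samples those means ran from 8.02 to 10.59 in controls, from 8.27 to 10.86 with FGF21 and from 8.59 to 9.34 with the antibody. In RNA from whole tissue, fewer cells of a type and less RNA per cell cannot be told apart.

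Sequence just upstream of the gene start was given for 6 of the 9 genes, in 9 windows of 250 bases (RefSeq, GRCm38.p6). Thbs1, Nav3 and Prg4 are named only. Windows are shown for the 2 cell-surface genes, for Crip2 and for S100g, because they show the contrast between the GC-rich windows of the first 3 and the AT-rich one of S100g. Each runs 5′ to 3′ on the gene's strand and ends at the base before the start. Capitals mark matches, on either strand, to the ETS motif CCGGAA and to the GC box GGGCGG.
Sdc4, chr2:164443189-164443438, minus strand: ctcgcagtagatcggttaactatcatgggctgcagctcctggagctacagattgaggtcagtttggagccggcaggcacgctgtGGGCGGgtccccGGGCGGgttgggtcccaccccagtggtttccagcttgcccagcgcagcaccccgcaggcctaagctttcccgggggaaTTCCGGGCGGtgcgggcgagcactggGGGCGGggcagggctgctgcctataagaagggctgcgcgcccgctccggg
Tnfrsf12a, chr17:23677450-23677699, minus strand: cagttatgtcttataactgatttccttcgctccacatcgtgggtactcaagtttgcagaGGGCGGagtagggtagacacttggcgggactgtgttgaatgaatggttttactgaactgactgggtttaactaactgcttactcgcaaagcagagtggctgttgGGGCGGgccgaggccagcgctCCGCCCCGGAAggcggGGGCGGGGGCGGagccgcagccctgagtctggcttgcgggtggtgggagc
Crip2, first of its starts, chr12:113139986-113140235, plus strand: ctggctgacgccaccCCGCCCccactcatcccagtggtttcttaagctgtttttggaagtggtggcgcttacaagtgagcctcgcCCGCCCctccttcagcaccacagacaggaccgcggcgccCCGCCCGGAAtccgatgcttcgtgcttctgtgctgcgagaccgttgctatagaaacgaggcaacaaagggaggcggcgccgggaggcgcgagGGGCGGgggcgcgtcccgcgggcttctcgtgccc
S100g, chrX:162964600-162964849, minus strand: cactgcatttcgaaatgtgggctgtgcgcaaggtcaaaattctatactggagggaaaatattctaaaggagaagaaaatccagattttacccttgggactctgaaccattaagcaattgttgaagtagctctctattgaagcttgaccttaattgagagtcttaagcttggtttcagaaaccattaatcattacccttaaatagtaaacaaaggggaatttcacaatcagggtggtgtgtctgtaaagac

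The ETS motif was found in 4 of the 9 windows, those of Sdc4, Tnfrsf12a and the first start of Crip2 shown above and that of the second start of Lmna, beside 12% of 32841 windows of the same length from all genes. In Sdc4, Tnfrsf12a and Crip2 the match shares bases with a GC box, and it lies 76 to 71, 61 to 56 and 122 to 117 bases before the start. The GC box itself was found in 6 windows of 5 genes, beside 32.7% of all windows. The AP-1 motif TGANTCA, the CRE motif TGACGTCA, the TEAD motif GGAATG and the CArG box of SRF were found in 0 of the 9 windows, beside 6.75%, 1.55%, 12.6% and 1.47% of all windows. G and C made up 68%, 58.8% and 66.8% of the Sdc4, Tnfrsf12a and Crip2 windows and 38.4% of the S100g window, which held 0 matches to any of the 6 motifs. In the windows not shown they made up 75.6% (second start of Crip2), 44% and 54.8% (Net1), and 56.4% and 52.8% (Lmna). A match is a description of these letters and no evidence of binding.

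**Figure D1:**
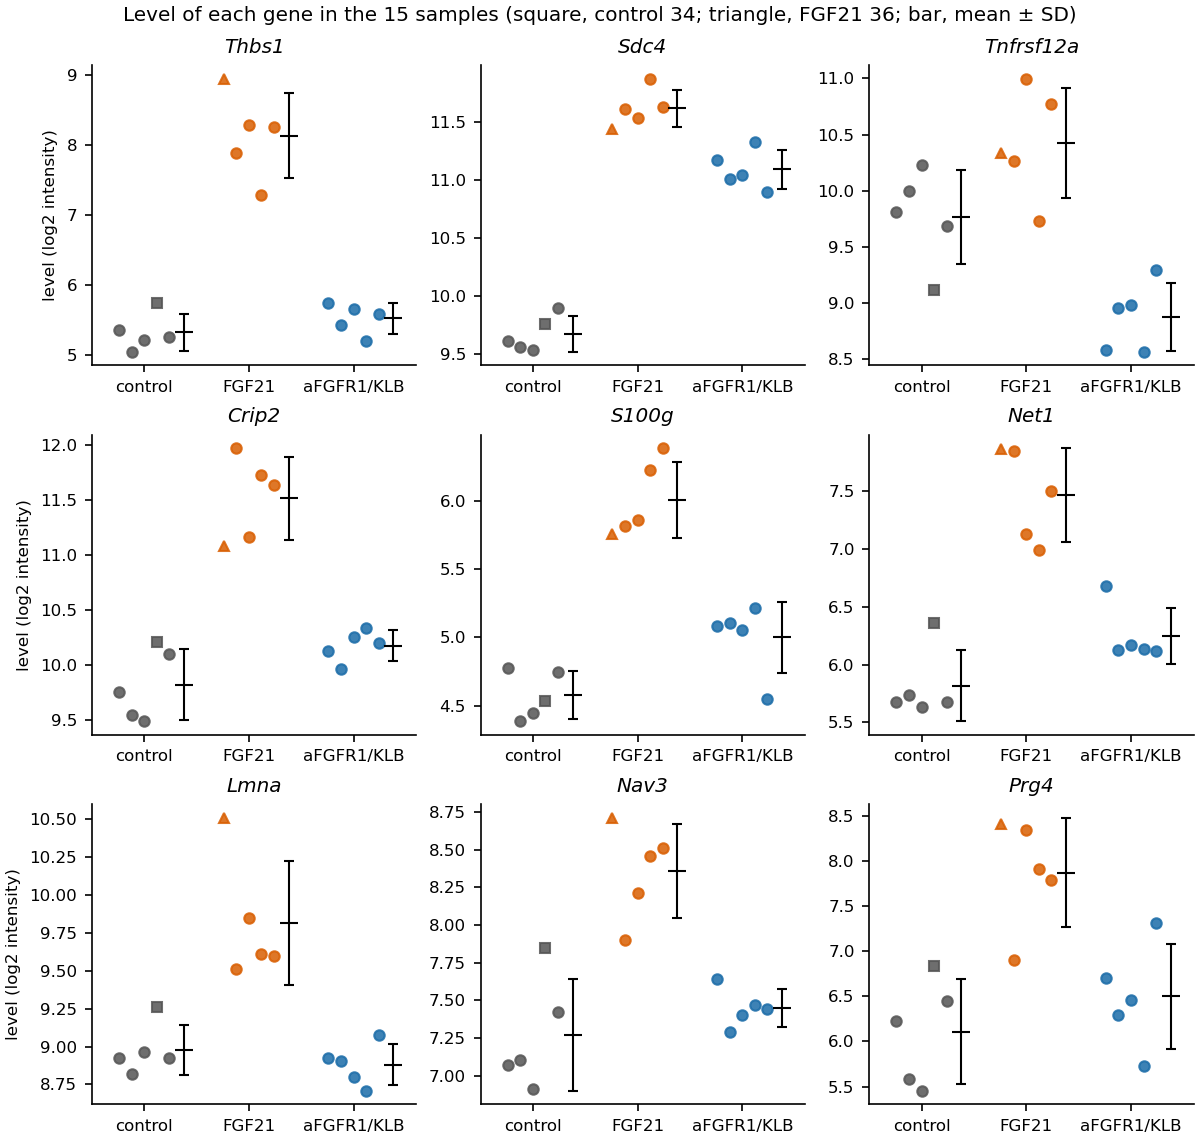
Level of each of the 9 genes (log2 intensity, vertical axis) in every sample, with 1 point per mouse, a square for control 34, a triangle for FGF21 36 and bars for the group mean ± SD (n = 5). The FGF21 samples lie above all 10 others in 7 panels, the exceptions being Tnfrsf12a and Prg4. The antibody samples overlap the controls in every panel but that of Sdc4, where they lie higher. For Tnfrsf12a 4 antibody samples lie below all controls, and for S100g 4 lie above all controls.

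In the choice of the genes, the 5 FGF21 samples lay above all 5 controls for 8 of them, all but Tnfrsf12a, where 2.37% of all tested genes showed this order. They lay above all 5 antibody samples for 8, all but Prg4, beside 2.3% of tested genes. For 7 genes the FGF21 samples lay above all 10 others, beside 0.531% of tested genes. Of the 32 genes called higher with FGF21 than with the antibody by limma at an adjusted p under 0.05 (0.243% of those tested), 8 are described here, all but Prg4. That list of 32 held 6 genes without FGF21 40 and 129 without control 34. In the 15 fits without 1 sample, Thbs1, Crip2 and S100g stayed in it throughout. Tnfrsf12a stayed in 14, Net1 in 13, Lmna in 10, Sdc4 in 5 and Nav3 in 3. The genes were chosen on this same comparison, so these counts describe the choice and give no support to the differences. S100g was in the tested set only through its FGF21 samples. Centring the arrays on ribosomal protein genes ended the calls of Sdc4, Tnfrsf12a and S100g. Taking the mean of all probe sets of a gene also ended that of Sdc4 (difference 0.43). The smallest difference between the agents was that of Sdc4, 0.53, with Tle3 (0.56) and Arhgap42 (0.55) just above it and Adgre5 and P3h2 (both 0.51) just below it in the list.

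Thbs1 encodes thrombospondin-1, a matrix glycoprotein that binds the receptors CD36 and CD47 and can release active TGF-beta. Its levels were 5.36, 5.05, 5.21, 5.75 and 5.25 in controls 31 to 35. They were 8.94, 7.88, 8.28, 7.28 and 8.25 in FGF21 samples 36 to 40. In antibody samples 41 to 45 they were 5.75, 5.43, 5.65, 5.19 and 5.59. All FGF21 samples were at least 1.53 above every other sample, whereas the antibody and control samples overlapped. The means ± SD were 5.32 ± 0.26 in controls, 8.13 ± 0.61 with FGF21 and 5.52 ± 0.22 with the antibody. FGF21 exceeded control by 2.80 ± 0.23 (SE), or 6.98-fold, and the antibody by 2.61 ± 0.23, in each case the largest difference among all tested genes. The antibody differed from control by 0.20 ± 0.23 (95% interval −0.30 to 0.70).

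A further probe set of Thbs1, 1450377_at, was dimmer and below the filter, and it read 1.93 higher with FGF21 than control and 0.00 with the antibody. Another, 1421811_at, carries the symbols Pald1 and Thbs1 and so names neither gene, and it read 4.18 ± 0.45 higher with FGF21 and 0.66 ± 0.45 with the antibody. The FGF21 difference was thus 1.93 and 2.80 on the probe sets of Thbs1 alone and 4.18 on the shared one. All 3 had the FGF21 samples apart from the controls.

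Among 18 tested genes related to thrombospondin function, which comprise its paralogs, receptors and the TGF-beta pathway it feeds, 0 were called with FGF21 against control, beside 2.64% of all tested genes called higher and 3.68% lower (median difference 0.11, all tested genes −0.02). The other thrombospondins were Thbs2 at 0.73 (adjusted p = 0.553), Thbs3 at −0.23 (0.775), Thbs4 at 0.28 (0.76) and Comp at 0.21 (0.586). Thbs2 ranged from 5.96 to 9.33 within the controls alone. The receptor Cd47 differed by 0.09 (adjusted p = 0.811) and the receptor Cd36 by 0.13 (0.187). With the antibody 1 of the 18 was called higher and 1 lower, beside 2.69% and 2.49% of all tested genes (median −0.14). Tgfbr2, a TGF-beta receptor, fell by 0.70 ± 0.11 (adjusted p = 0.00229), and it stayed called in all 15 fits without 1 sample. Cd36, which also takes up fatty acids, rose by 0.23 ± 0.05 (adjusted p = 0.0248), a call that ended without control 31, 32 or 33 or antibody 41, 42 or 45 (adjusted p 0.0514 to 0.0669) and when the arrays were centred on ribosomal protein genes (0.203).

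Prg4 encodes lubricin, a mucin-like secreted glycoprotein best known from joint surfaces. Its levels were 6.22, 5.59, 5.46, 6.83 and 6.44 in controls 31 to 35. They were 8.41, 6.90, 8.34, 7.91 and 7.79 with FGF21 and 6.71, 6.30, 6.46, 5.73 and 7.31 with the antibody. FGF21 37 was the low sample of its group, 0.06 above the highest control and below antibody 45, so FGF21 and antibody samples overlapped. Group means were 6.11 ± 0.58, 7.87 ± 0.61 and 6.50 ± 0.58 (SD), the widest spread of the 9 genes in the control and antibody groups. Prg4 with FGF21 exceeded control by 1.76 ± 0.34, the difference of rank 10 among all tested genes, and the antibody by 1.37 ± 0.34. The antibody differed from control by 0.39 ± 0.34 (95% interval −0.33 to 1.12), and this interval does not show that the antibody left Prg4 at its control level. Lubricin has 1 probe set here. Of 10 tested genes of lubricin, hyaluronan and its receptors, 0 were called with FGF21 and 1 fell with the antibody, the matrix protein gene Matn2 (−0.89 ± 0.20, adjusted p = 0.0177, called in all 15 fits without 1 sample).

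Sdc4 encodes syndecan-4, a heparan sulfate proteoglycan of the cell surface that can present fibroblast growth factors to their receptors and takes part in focal adhesions. Control levels were 9.61, 9.56, 9.53, 9.75 and 9.89. FGF21 levels were 11.44, 11.62, 11.54, 11.87 and 11.63. Antibody levels were 11.17, 11.01, 11.04, 11.33 and 10.90. The 3 groups did not overlap at all: the controls were lowest, the antibody samples lay at least 1.00 above them, and the lowest FGF21 sample was 0.11 above the highest antibody sample. Its means were 9.67 ± 0.15, 11.62 ± 0.16 and 11.09 ± 0.17. With FGF21 it exceeded control by 1.95 ± 0.10, or 3.86-fold. With the antibody Sdc4 exceeded control by 1.42 ± 0.10, or 2.68-fold (95% interval 1.21 to 1.63), and by 1.36 to 1.51 in the alternative fits. All 5 antibody samples above all controls were seen in 4.44% of tested genes. The antibody difference was 72.9% of the FGF21 difference on the log2 scale, the largest share of the 9 genes. On a second probe set, 1448793_a_at, the differences from control were 1.79 with FGF21 and 1.46 with the antibody, but the agents differed by 0.34 and their samples overlapped.

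Of 18 tested genes of the other syndecans, glypicans and heparan sulfate synthesis, 0 were higher in either comparison with control (medians −0.09 with FGF21 and −0.19 with the antibody). The glypican Gpc4, another heparan sulfate proteoglycan, fell by 0.48 ± 0.10 with FGF21 (adjusted p = 0.0116, or 0.0647 with ribosomal centring) and by 0.62 ± 0.10 with the antibody (adjusted p = 0.0036). Syndecan-2 (Sdc2) fell with the antibody by 0.39 ± 0.09 (adjusted p = 0.0258), a call that ended without control 31 or 33 or antibody 42, 43 or 44 (adjusted p 0.0526 to 0.0759), with only the groups compared (0.0521) and with ribosomal centring (0.14). With FGF21 Sdc2 differed by −0.30 (0.0735), Sdc1 by 0.76 (0.425) and Sdc3 by 0.27 (0.657). Sdc1 ran from 5.74 to 8.09 in controls and from 5.94 to 8.69 with FGF21.

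Tnfrsf12a encodes Fn14, the receptor of the cytokine TWEAK, which was first found as a gene induced by fibroblast growth factor in fibroblasts. Control levels were 9.81, 10.00, 10.23, 9.12 and 9.69. FGF21 levels were 10.34, 10.27, 10.996, 9.73 and 10.78. Antibody levels were 8.59, 8.96, 8.98, 8.57 and 9.29. In 4 FGF21 samples the level was above every control, while FGF21 39 lay within the control range. In 4 antibody samples it was below every control, while antibody 45 lay above control 34. The means were 9.77 ± 0.42, 10.42 ± 0.49 and 8.88 ± 0.31, so the controls lay between the agents. FGF21 exceeded control by 0.65 ± 0.24 and the antibody by 1.54 ± 0.24, or 2.92-fold.

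With the antibody Tnfrsf12a differed from control by −0.89 ± 0.24, the lowest antibody difference of the 9 genes (95% interval −1.40 to −0.38, 5 of 5 samples below the control mean). Its low antibody levels helped to place it among the 9, so this difference is no independent measure. It stayed between −1.05 and −0.78 in the fits without 1 sample. A second probe set, 1418572_x_at, gave 0.72 with FGF21 and −0.92 with the antibody. Of 13 tested genes of TWEAK and non-canonical NF-kappaB signalling, 0 were called with FGF21 (median 0.06) and 1 fell with the antibody (median −0.08). It was Relb, a transcription factor of that pathway, at −0.57 ± 0.13 (adjusted p = 0.0204), and its call ended without control 32 or 33 or antibody 41 (adjusted p 0.0545 to 0.0568) and with ribosomal centring (0.122).

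**Figure D2:**
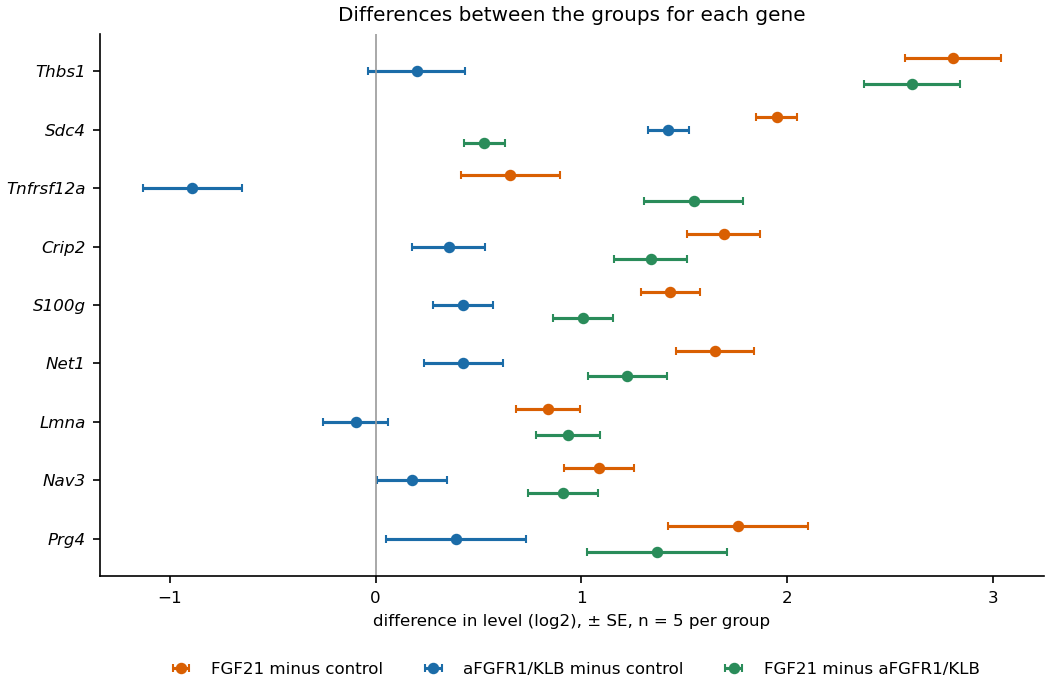
Difference in level between groups (log2, horizontal axis, point ± SE, n = 5 per group) for each of the 9 genes, for FGF21 minus control, antibody minus control and FGF21 minus antibody. Thbs1 has the largest differences with FGF21 (2.80 and 2.61), Sdc4 is the one with a large antibody difference (1.42), and Tnfrsf12a has its antibody difference below 0 (−0.89).

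Net1 encodes a guanine nucleotide exchange factor. Control levels were 5.68, 5.74, 5.64, 6.36 and 5.67. FGF21 levels were 7.87, 7.85, 7.13, 6.99 and 7.50. Antibody levels were 6.68, 6.12, 6.17, 6.13 and 6.12. The FGF21 samples lay above all others by at least 0.31, and of the antibody samples only 41 exceeded control 34, the high control. Group means were 5.82 ± 0.31, 7.47 ± 0.40 and 6.24 ± 0.24. Net1 was higher with FGF21 than control by 1.65 ± 0.19, or 3.14-fold, and than the antibody by 1.22 ± 0.19. The antibody difference from control was 0.43 ± 0.19 (95% interval 0.02 to 0.83). It was 0.56 without control 34 and 0.32 without antibody 41, the high sample of each group.

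Crip2 encodes a small cysteine-rich protein with LIM domains. Control levels were 9.76, 9.55, 9.49, 10.21 and 10.11. FGF21 levels were 11.08, 11.97, 11.17, 11.72 and 11.63. Antibody levels were 10.13, 9.96, 10.26, 10.34 and 10.20. The FGF21 samples were at least 0.74 above all others, and 2 antibody samples lay above all controls. Means were 9.82 ± 0.32, 11.51 ± 0.38 and 10.18 ± 0.14. The FGF21 group exceeded control by 1.69 ± 0.18, or 3.23-fold, and the antibody by 1.34 ± 0.18. The antibody difference was 0.35 ± 0.18 (95% interval −0.02 to 0.73). In the 17 tested genes of other CRIP and CSRP proteins and the actin cytoskeleton, 0 were called in any of the 3 comparisons. Their medians were 0.10 with FGF21, −0.16 with the antibody and 0.23 between the agents, and 0.43 was the FGF21 difference of the relative Crip1 (adjusted p = 0.432).

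S100g encodes a small calcium-binding protein that carries calcium through intestinal cells and is induced there by vitamin D. Control levels were 4.78, 4.39, 4.44, 4.54 and 4.74. FGF21 levels were 5.76, 5.82, 5.86, 6.23 and 6.39. Antibody levels were 5.09, 5.10, 5.05, 5.22 and 4.55. All controls lay below the filter of 5.06. The FGF21 samples stood 0.54 or more above the rest, and 4 antibody samples lay above all controls, with antibody 45 among the controls. Means were 4.58 ± 0.18, 6.01 ± 0.28 and 5.00 ± 0.26. FGF21 exceeded control by 1.43 ± 0.14 and the antibody by 1.01 ± 0.14. On the scale log2(value + 16), which shrinks the differences of dim genes, the FGF21 difference was 1.01. The antibody difference was 0.42 ± 0.14 (95% interval 0.11 to 0.73), and without antibody 45 it was 0.54. Both means in that difference lay below the filter. Of 14 tested genes of the S100 family and vitamin D calcium transport, 0 were called in any of the 3 comparisons. Their medians were 0.13 with FGF21, −0.08 with the antibody and 0.17 between the agents.

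Nav3 encodes a neuron navigator, a protein of growing microtubule ends. Control levels were 7.07, 7.10, 6.91, 7.84 and 7.42. FGF21 levels were 8.71, 7.90, 8.21, 8.46 and 8.51. Antibody levels were 7.64, 7.29, 7.40, 7.46 and 7.44. FGF21 37 was only 0.06 above control 34, yet no FGF21 sample overlapped another group, and the antibody samples lay within the control range. The means were 7.27 ± 0.37, 8.36 ± 0.31 and 7.45 ± 0.13. FGF21 exceeded control by 1.09 ± 0.17 and the antibody by 0.91 ± 0.17. The antibody difference was 0.18 ± 0.17 (95% interval −0.19 to 0.54). On the probe set 1442918_at the FGF21 difference was 0.49 and the antibody difference −0.19, and on the dim 1445160_at they were 0.98 and 0.04.

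The other navigators did not have the levels of Nav3. Nav2 fell, by 0.79 ± 0.13 with FGF21 (adjusted p = 0.00287) and by 0.57 ± 0.13 with the antibody (adjusted p = 0.0217). The antibody call ended without control 32 or 33 or antibody 41, 42 or 43 (adjusted p 0.0505 to 0.0595) and with ribosomal centring (0.22). Nav1 differed by 0.49 with FGF21 (adjusted p = 0.385). Of 14 tested genes of navigators and microtubule plus-end proteins, 0 were higher in either comparison with control (medians 0.04 and −0.13). Clasp2, which stabilises microtubule ends, fell by 0.33 ± 0.07 with FGF21 (adjusted p = 0.0103). That call ended with only the groups compared in the fit (adjusted p = 0.0618), with ribosomal centring (0.32) and with the mean of its probe sets (−0.17, adjusted p = 0.0885).

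Lmna encodes lamins A and C, which line the inside of the nuclear envelope. Control levels were 8.92, 8.82, 8.97, 9.26 and 8.93. FGF21 levels were 10.51, 9.51, 9.85, 9.61 and 9.60. Antibody levels were 8.92, 8.90, 8.80, 8.71 and 9.07. FGF21 36 was the high sample of its group, and the other 4 still lay above all controls, while antibody and control samples overlapped. Means were 8.98 ± 0.17, 9.82 ± 0.41 and 8.88 ± 0.14. FGF21 exceeded control by 0.84 ± 0.16, or 1.79-fold, and by 0.66 without FGF21 36, and it exceeded the antibody by 0.93 ± 0.16. The antibody differed from control by −0.10 ± 0.16 (95% interval −0.43 to 0.24).

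The 5 probe sets of Lmna did not read alike. The FGF21 difference from control was 1.06 ± 0.20 on 1457670_s_at and 0.68 ± 0.10 on 1425472_a_at, both with no overlap of samples. It was 0.27 ± 0.10 on 1426868_x_at and −0.03 ± 0.09 on 1452212_at, both with overlap. Which transcripts of the gene each probe set detects was not examined. The antibody differences on the 5 lay between −0.10 and 0.03. Of 18 tested genes of the nuclear lamina and envelope, 0 were called in any of the 3 comparisons (medians 0.03, −0.01 and 0.01). The B-type lamins differed with FGF21 by 0.04 (Lmnb1, adjusted p = 0.894) and −0.06 (Lmnb2, 0.807).

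**Figure D3:**
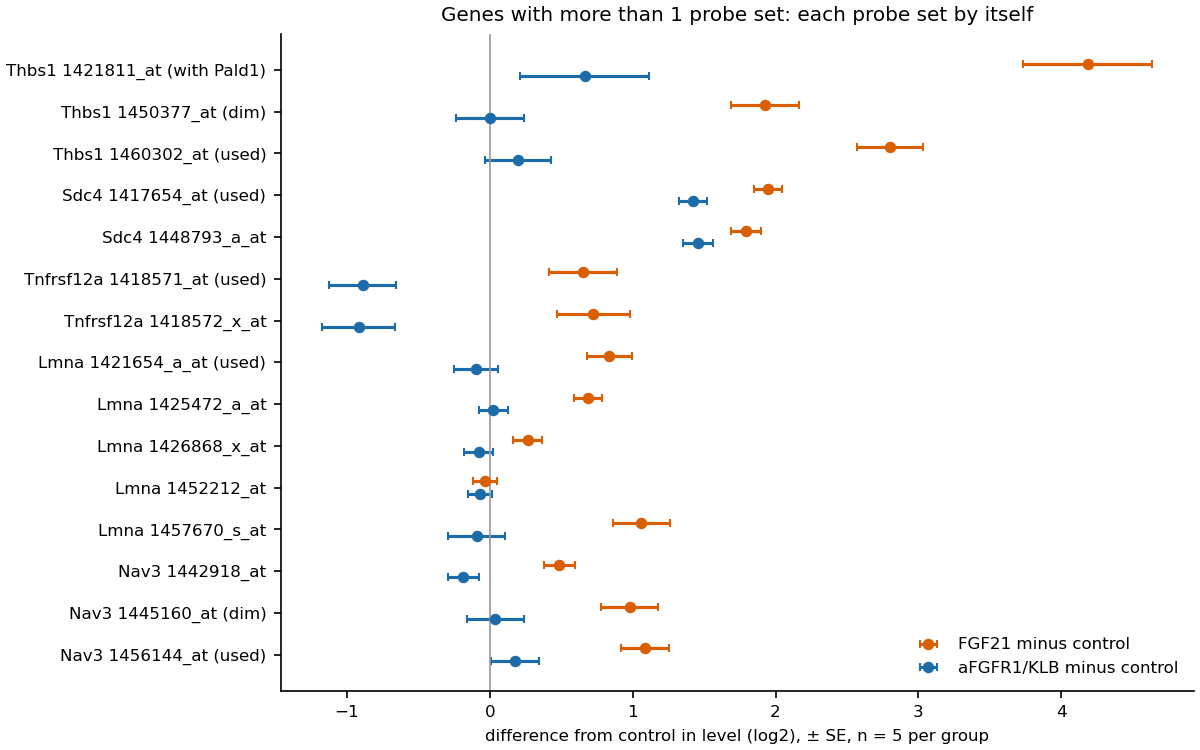
Difference from control (log2, ± SE, n = 5 per group) on every probe set of the 5 genes measured by more than 1, for FGF21 and for the antibody, where "used" marks the one chosen for the gene and "dim" one below the filter. The FGF21 difference of Lmna runs from −0.03 to 1.06. That of Thbs1 is 1.93 and 2.80 on the sets with its symbol alone, beside 4.18 on the set shared with Pald1. The sets of Sdc4 (1.79 and 1.95) and of Tnfrsf12a (0.65 and 0.72) lie close together.

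In the fit over all genes, 2 of the 9 had an adjusted p under 0.05 with the antibody against control, Sdc4 higher and Tnfrsf12a lower (the latter in 5 of the 15 fits without 1 sample), beside 5.18% of all tested genes called in either direction (682 genes, from 336 without antibody 42 to 1140 without control 34). Nothing is read from that count, since the antibody levels took part in the choice. The other 7 differed by −0.10 to 0.43. As a share of the FGF21 difference on the log2 scale, the antibody difference was 29.6% for S100g, 25.8% for Net1, 22.3% for Prg4, 20.9% for Crip2, 16.3% for Nav3 and 7.09% for Thbs1. It was −11.6% for Lmna and −136% for Tnfrsf12a, whose antibody difference had the opposite sign. Both differences use the same 5 controls, so a high or low control moves both. Leaving out 1 sample moved the antibody difference by more than 1.5 times for 4 genes, and with it their shares. It was 0.13 without control 32 and 0.30 without control 34 for Thbs1. For Nav3 it was 0.09 without control 33 and 0.32 without control 34. For Prg4 it was 0.23 without control 33 and 0.19 without antibody 45. For Lmna it was −0.03 without control 34 and −0.05 without antibody 44.

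The order of the samples within a group differed between the genes. Control 34 was the highest control for 6 of them (Thbs1, Crip2, Net1, Lmna, Nav3 and Prg4) and the lowest for Tnfrsf12a. FGF21 36 was the highest FGF21 sample for 5 (Thbs1, Net1, Lmna, Nav3 and Prg4) and the lowest for Sdc4, Crip2 and S100g. These are the samples with the highest macrophage markers, of which 17 of 18 were tested and 0 were called in any comparison. The medians of these markers were 0.56 with FGF21, −0.06 with the antibody and 0.58 between the agents, where all 17 were higher with FGF21. Fibroblast and adipose progenitor markers, with 10 of 12 tested, were also highest there, at 11.56 in control 34 and 11.07 in FGF21 36, and ran from 9.37 to 10.02 with the antibody. Their medians were 0.08 with FGF21, −0.47 with the antibody and 0.48 between the agents, where all 10 were higher with FGF21. Muscle markers ran from 9.22 to 11.07 in controls, 4.77 to 13.03 with FGF21 and 4.98 to 13.15 with the antibody.

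With the macrophage mean of each sample in the model, the FGF21 difference from control was 2.65 for Thbs1, 1.93 for Sdc4, 1.67 for Crip2, 1.58 for Net1 and 1.42 for S100g. It was 1.45 for Prg4, 0.90 for Nav3, 0.80 for Tnfrsf12a and 0.70 for Lmna. Without control 34 and FGF21 36 it was 2.71 for Thbs1, 2.01 for Sdc4, 1.90 for Crip2, 1.69 for Net1, 1.49 for S100g and 1.81 for Prg4. For Nav3, Tnfrsf12a and Lmna it was 1.14, 0.51 and 0.73. All 9 differences kept their sign in both fits, and the difference between FGF21 and the antibody did so too, from 0.51 (Sdc4) to 2.45 (Thbs1) with the macrophage mean. The genes were chosen for these differences, so a kept sign was favoured beforehand, and no conclusion is drawn from it. Tnfrsf12a moved the other way from the rest, since the macrophage mean raised its FGF21 difference from 0.65 to 0.80. With the muscle mean of each sample in the model instead, the FGF21 difference from control was 2.90 for Thbs1, 1.91 for Sdc4, 1.84 for Prg4 and 1.74 for Net1. It was 1.69 for Crip2, 1.37 for S100g, 1.10 for Nav3, 0.90 for Lmna and 0.66 for Tnfrsf12a. The part of other cell types in the levels was otherwise not tested.

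**Figure D4:**
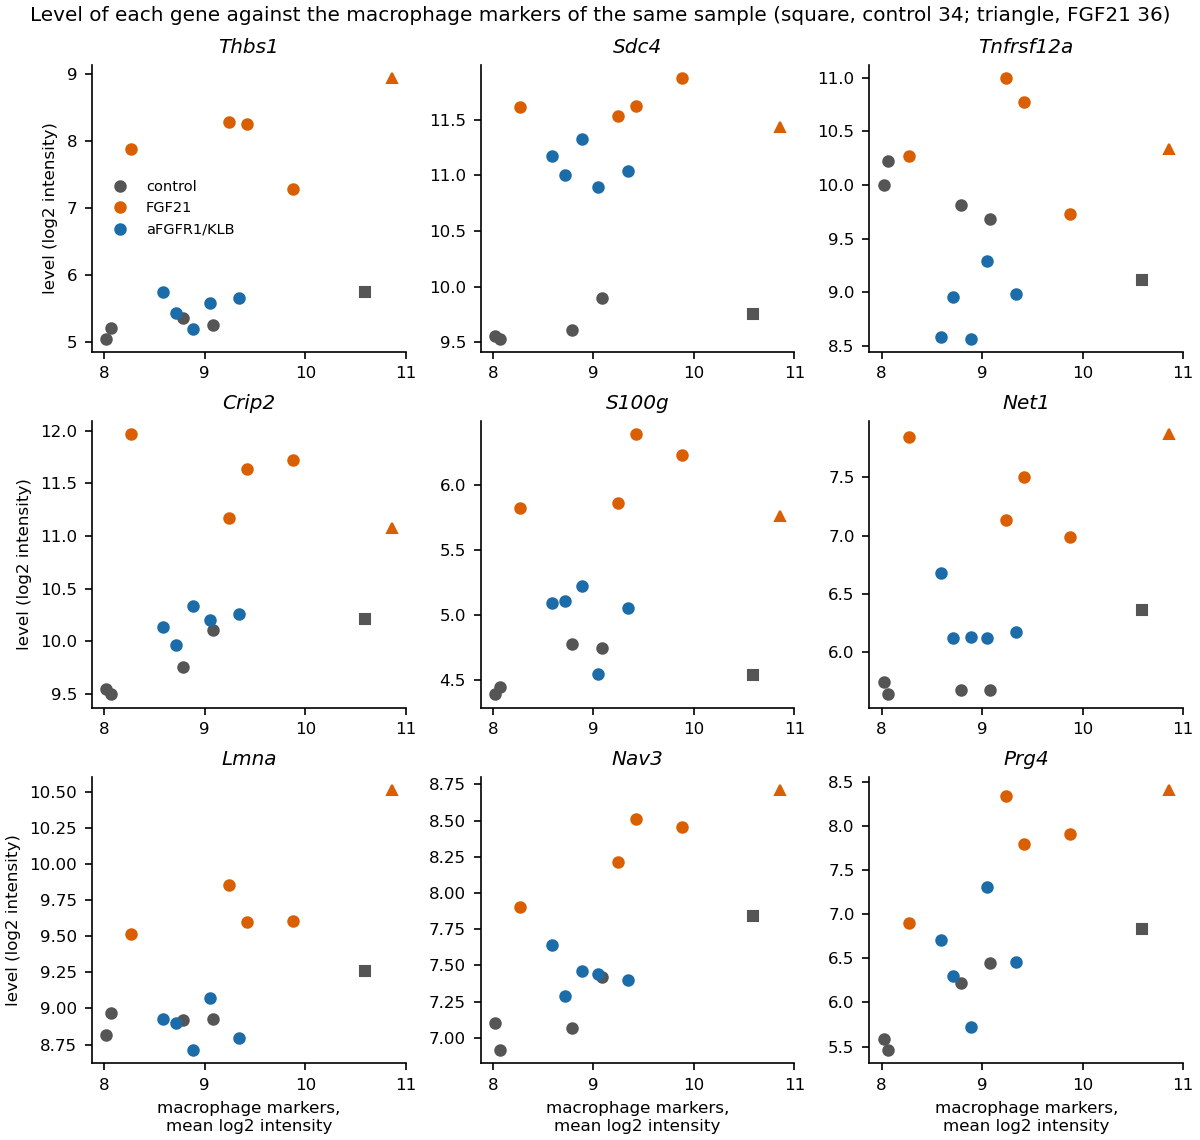
Level of each of the 9 genes (log2 intensity, vertical axis) against the mean of 17 macrophage markers in the same sample (log2 intensity, horizontal axis), 1 point per mouse, with a square for control 34 and a triangle for FGF21 36. The macrophage mean runs from 8.02 to 10.59 in controls, with control 34 at the upper end, and from 8.27 to 10.86 with FGF21, with FGF21 36 at the upper end.

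Genes that FGF signalling through ERK is known to induce were the remaining large list. Of 18 tested, 7 were higher with FGF21, beside 2.64% of all tested genes, and 5 with the antibody, beside 2.69%, and 0 were lower in either. The median with FGF21 was 0.38, or 0.22 with the macrophage mean in the model. With the antibody it was 0.10, or 0.26 without control 34 and FGF21 36 and 0.19 with arrays centred on ribosomal protein genes. In the comparison of the agents, in which 0.372% of all tested genes were called in either direction, 1 of the 18 was called, the MAP kinase phosphatase gene Dusp4, at 0.96 ± 0.13 higher with FGF21 (adjusted p = 0.0068, at most 0.0314 in the fits without 1 sample). Ribosomal centring ended that call (0.87, adjusted p = 0.114). Its levels ran from 7.91 to 8.42 in controls, 9.96 to 10.61 with FGF21 and 9.26 to 9.70 with the antibody, an order of the 3 groups without overlap as in Sdc4. Among 19 tested SRF, MRTF and YAP target genes, 1 was higher and 1 lower with FGF21 (median −0.01). Fosl1, an AP-1 subunit, rose by 0.99 ± 0.20 (adjusted p = 0.00947, or 0.0539 with only the groups compared), and Ajuba, a LIM protein, fell by 0.41 ± 0.11 (adjusted p = 0.041). The Ajuba call ended in 10 of the 15 fits without 1 sample, with adjusted p up to 0.109 without control 32, and in 5 other alternatives (0.052 to 0.318). With the antibody Yap1, the co-activator itself, fell by 0.33 ± 0.08 (adjusted p = 0.0202), a call that ended without control 32 or 33 or antibody 41 (adjusted p 0.0519 to 0.0565), with ribosomal centring (0.502) and with the mean of its probe sets (0.0995).

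**Figure D5:**
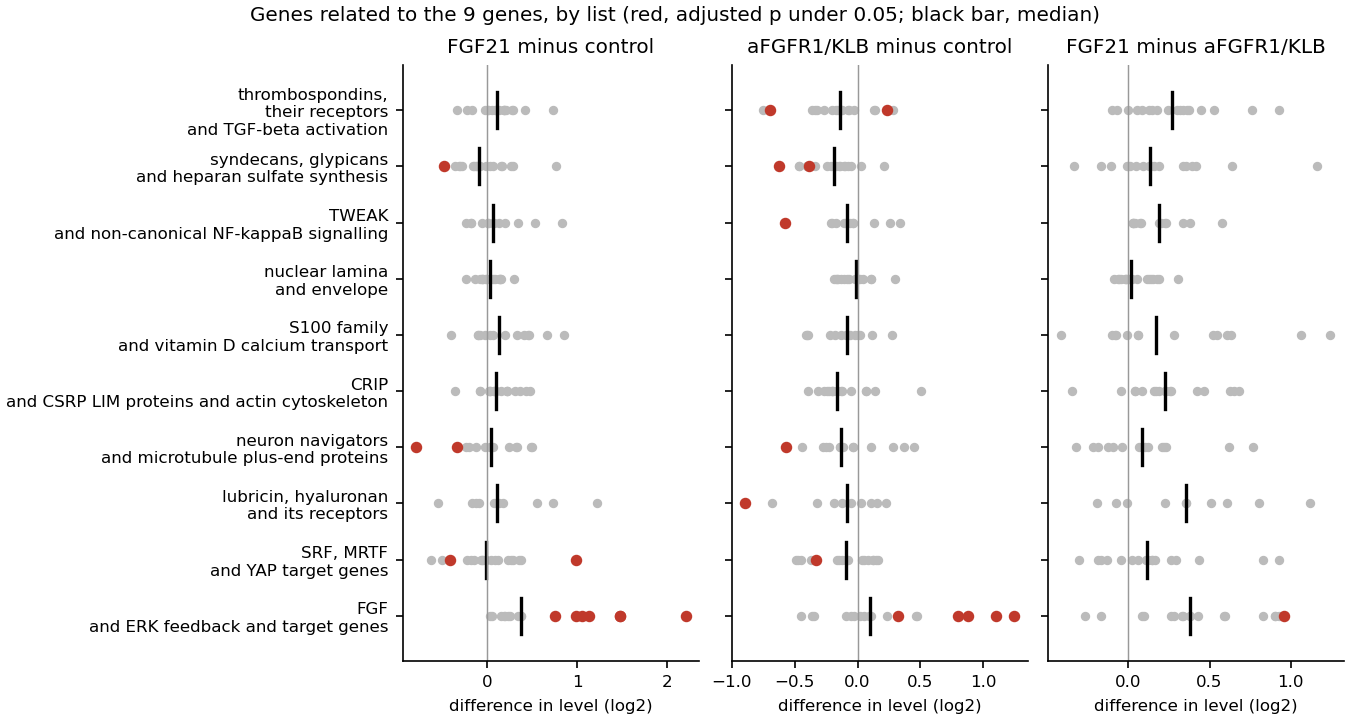
Difference in level (log2, horizontal axis) of each tested gene of the 10 lists related to the 9 genes, in the 3 comparisons, with a red point for a gene called at an adjusted p under 0.05, a grey point for the others and a black bar at the list's median. The FGF and ERK list has the highest FGF21 median (0.38), with 7 of 18 genes called higher, and the lists of relatives of the 9 genes lie between −0.09 and 0.13 with FGF21. In FGF21 minus antibody the medians of all 10 lists lie above 0, beside −0.01 over all tested genes. They run from 0.01 (lamina) to 0.38 (FGF and ERK), with lubricin at 0.36 and thrombospondins at 0.27. None of these medians was tested.

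Over the 15 samples, the tested genes whose levels were most like those of each of the 9 were found by Pearson's r, which here mostly reflects the group differences and is given as a description. Sdc4 was most like Dusp4 (r = 0.974), Dusp6 (0.972) and Spry4 (0.963), all feedback inhibitors of the ERK cascade. Thbs1 was most like Net1 (0.939), Lmna (0.933) and Mfge8 (0.926), and S100g was also near Crip2 (0.916), so some of the 9 were nearest to each other. All 9 were chosen on these group differences, so likeness between them is in part a product of the choice. Nav3 was nearest to Cic (0.933), Etv5 (0.929) and Gcnt2 (0.91), and Lmna to Atp6v0a1 (0.966) and Trim47 (0.94). Prg4 was nearest to Lrrfip1 (0.932), Naa50 (0.922) and Gda (0.915). For Tnfrsf12a the likeness was lowest, with Cyb5a (0.899), Tle3 (0.872) and Slco2a1 (0.834). Uhrf1bp1l (0.96) and Ppp2r1b (0.927) led for Crip2, and Ppp2r1b (0.936), Dusp4 (0.928) and Prrg3 (0.923) for S100g. After Thbs1, Net1 was nearest to Ppp2r1b (0.905) and Uhrf1bp1l (0.904).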

How the data were processed

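Total RNA from interscapular brown fat of 15 mice was labelled with biotin and read on 1 array per mouse. The deposited table gives 1 intensity per probe set and sample on a linear scale. It was made by the authors with RMA, according to the submitters' processing notes, and the version is not given in the sources used here. RMA pulls the arrays to a common distribution, so a change in the total RNA of a cell is not visible. Arrays have no read depth, and precision is limited by how many there are.

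The platform annotation gave 1 gene symbol to 34958 of 45101 probe sets, several to 932 and did not list 9211, and 34754 of the first kind matched a RefSeq entry. Values were taken to log2. Each gene was represented by its brightest single-symbol probe set, and 13174 of 18194 genes were tested, those whose mean passed the 40th percentile over probe sets. The fit of limma 3.58.1 (R 4.3.3), with lmFit, eBayes and two-sided p, used every sample and the 3 groups, with Benjamini-Hochberg adjustment over all genes within each comparison and a threshold of 0.05. All adjusted p are from that fit unless another is named. They weigh a mean difference against the spread between these mice, as moderated by eBayes over all genes. The fit was tested on simulated data.

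The 9 genes, the 10 lists of related genes and the 10 marker lists were chosen with earlier results of these data known. Named beside the 9 are up to 4 called genes per list with the smallest p, the 3 genes most like each of the 9, and those next to Sdc4 in the comparison of the agents. Other relatives (Thbs2 to Thbs4, Comp, Cd47, Sdc1, Sdc3, Crip1, Lmnb1, Lmnb2 and Nav1) were named after their values were seen. 1 further list is not reported here. Promoter windows came from RefSeq. The alternatives were each sample left out, control 34 and FGF21 36 left out together, only the groups compared, other filters, log2(value + 16), another quantile normalisation, centring on ribosomal protein genes, the mean of or each other probe set, macrophage or muscle markers as a covariate, and a trended robust spread. Running them on the related genes was decided after seeing the data.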

Additional observations from a re-analysis of the deposited data

Results flagged for a closer look

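Dixon's test for a sample far from its group was run on 57 groups of 5, 27 for the 9 genes and 30 for the marker lists. It found 6 such samples, where chance gives about 1 in 20 groups. S100g was low in antibody 45, at 4.55, with the next sample at 5.05. Net1 was high in control 34, at 6.36 against 5.74 for the next control, and in antibody 41, at 6.68 against 6.17. The mean of the fibroblast and adipose progenitor markers was 11.56 in control 34, with the next control at 10.14. The brown adipocyte markers were lowest in the same sample, at 12.26 against 12.50. The Schwann cell and nerve markers were high in control 33, at 7.67 against 7.45. The antibody difference of Net1 is given above without control 34 and without antibody 41, and that of S100g without antibody 45.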

How the results depend on the processing

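No paired analysis was possible because the replicate numbers 31 to 45 do not repeat between groups. The FGF21 differences of the 9 genes, against control and against the antibody, kept their sign in every alternative but 1: on the probe set 1452212_at Lmna was −0.035 against control. The choice of the genes favoured that sign, so this is a description only. The antibody difference changed sign on the probe set 1425472_a_at for Lmna (0.026) and on 1442918_at for Nav3 (−0.19). Over the alternatives the antibody difference of Sdc4 lay between 1.36 and 1.51 and that of Tnfrsf12a between −1.05 and −0.78. The cause was not tested.

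Counts of genes called over the whole array moved more. With 1 sample left out they ran from 463 (without control 32) to 2097 (without control 34) for FGF21 against control, from 336 to 1140 for the antibody, and from 10 (without FGF21 40) to 251 (without control 34) between the agents. Without control 34 and FGF21 36 they were 2138, 1631 and 241, with a macrophage covariate 1335, 1740 and 125, and with ribosomal centring 179, 145 and 9. That centring raised the share of calls that were higher from 41.8% to 66.5%, from 51.9% to 77.2% and from 65.3% to 77.8%. With only the groups compared, 322 genes were called for FGF21 against control and 87 between the agents. The count between the agents was also 77 above the 60th percentile, 79 with a muscle covariate and 81 with a trended robust spread. Thbs1 and S100g lay below that percentile. Of 22 calls checked for related genes, all kept their sign, 16 held in all 15 fits without 1 sample and 11 of those in the other alternatives too. The 22 include the calls of Dusp4, Spry4, Spred2 and Dusp6 against control, which are not given above. Of the calls given above, only those of Tgfbr2, Gpc4 and Matn2 with the antibody and of Nav2 with FGF21 held throughout. Ribosomal centring ended 9 (adjusted p 0.0647 to 0.502), among them those of Gpc4 and Clasp2 with FGF21 and Dusp4 between the agents. The fit of only 2 groups ended 4, among them Fosl1 (0.0539), and the mean of all probe sets 3. With a macrophage covariate the FGF21 medians of 5 lists moved from above to below 0. They were −0.09 for lubricin, −0.07 for thrombospondins, −0.05 for CRIP, −0.03 for navigators and −0.01 for the lamina. The syndecan and SRF medians, below 0 already in the main fit, were −0.19 and −0.09. Without control 34 and FGF21 36 the navigator median was −0.02 and the lamina median −0.0047, and the antibody medians of thrombospondins and lubricin were 0.01 and 0.04. Ribosomal centring brought the antibody medians of TWEAK, lamina, S100, lubricin and SRF lists above 0 (0.0021 to 0.08). Between the agents it brought the navigator and lamina medians below 0 (−0.0016 and −0.07). With a macrophage covariate the medians between the agents of the lists of relatives lay between 0.0052 (navigators) and 0.20 (S100).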
